A study of Mus musculus with 10 samples.

Results

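The 38 genes described here build and run the lysosome. They are 14 subunits of its proton pump, 12 hydrolases, 6 membrane proteins, 3 soluble cofactors and 3 transcription factors of lysosomal genes. They were matched by symbol in the deposited count table, which holds 55487 genes. Each symbol was found once, and all 38 genes passed the filter on low counts that left 18957 genes for testing. RNA was sequenced in bulk from cells sorted out of mouse retina by flow cytometry, and the comparisons ask how these cells differ from controls during diabetes. There were 3 groups. The 8wk STZ group held 4 mice studied 8 weeks after streptozotocin (STZ), a toxin of the insulin-producing beta cells that makes mice diabetic. The 4wk STZ group held 3 mice studied 4 weeks after it, and the Control group held 3 littermates. Mice of all groups, the controls included, were Cx3cr1GFP/+: a green fluorescent protein (GFP) stands in 1 of the 2 copies of the fractalkine receptor gene, so every library lacks 1 working copy. The sort took live GFP-positive cells from the pooled retinas of both eyes of 1 animal per library. GFP in this line marks microglia and also other myeloid cells. Neither the age of the controls nor a library batch is given in the labels, so animal age and weeks of diabetes cannot be told apart. In bulk samples, fewer cells of a type and less RNA per cell cannot be told apart either.

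Lysosomes break down what microglia engulf, including synaptic material and the debris of photoreceptors. The vacuolar ATPase acidifies them: its V1 sector, in the cytosol, burns ATP and turns a rotor that drives protons through the V0 sector in the membrane. Acid hydrolases then cut proteins, lipids, sugars and glycogen, while membrane proteins protect the boundary, export products and release calcium. The transcription factors TFEB, TFE3 and MITF bind E-box letters in the promoters of many of these genes, in a motif known as the CLEAR element.

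RefSeq promoters (GRCm38.p6, 250 bases before to 50 after a start) were at hand for 32 of the 38 genes. The core TCACGTGA, a palindrome that reads the same on both strands and holds the E-box CACGTG within it, stood in 5 of the 32 (15.6%), against 1.12% of the 27025 genes with a promoter in the table. The shorter CACGTG stood in 9 of the 32 (28.1%), against 8.09% of all genes. Among the other lysosomal genes of a list of 96, the core stood in 7 of 77 with a promoter (9.09%) and CACGTG in 20 (25.97%). These shares describe letters in a window and say nothing of binding. The stretches around the core are shown for the 5 genes that hold it, with TCACGTGA in capitals and 16 bases on either side. They read 5′ to 3′ on the strand of the gene, with positions counted from the first transcribed base as 1. Atp6v0d1, the subunit that couples rotor to membrane ring, holds the core at -4 to 4 (chr8:105566045-105566084).
Atp6v0d1: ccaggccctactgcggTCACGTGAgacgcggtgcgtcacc
Atp6v0e, a small membrane subunit, holds it at 3 to 10 (chr17:26676382-26676421).
Atp6v0e: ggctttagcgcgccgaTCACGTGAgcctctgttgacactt
Atp6v1a, the catalytic subunit that splits ATP, holds it at -132 to -125 (chr16:44139368-44139407).
Atp6v1a: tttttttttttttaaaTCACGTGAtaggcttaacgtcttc
Mcoln1, the lysosomal calcium channel, holds it at -46 to -39 (chr8:3500457-3500496).
Mcoln1: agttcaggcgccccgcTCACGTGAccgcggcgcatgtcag
Gla, the alpha-galactosidase that cuts globotriaosylceramide, holds 2 copies within -228 to -188 (chrX:134601177-134601249).
Gla: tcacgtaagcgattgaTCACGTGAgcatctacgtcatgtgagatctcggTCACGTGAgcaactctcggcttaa

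None of these 5 genes passed the test in any comparison. Over all genes, 2.37% passed at 8 weeks, 0% at 4 weeks and 0.918% between the STZ groups. In a list of 5 genes, 0 calls is near those shares. Of the 4 genes that fell at 8 weeks, 3 had a promoter in the table. These are shown whole, with CACGTG in capitals where present. Atp6ap1 (chrX:74296847-74297146, plus strand) and Tpp1 (chr7:105752186-105752485, minus strand) held neither motif, and Glb1 (chr9:114400828-114401127, plus strand) held 1 CACGTG without the outer letters of the core.
Atp6ap1: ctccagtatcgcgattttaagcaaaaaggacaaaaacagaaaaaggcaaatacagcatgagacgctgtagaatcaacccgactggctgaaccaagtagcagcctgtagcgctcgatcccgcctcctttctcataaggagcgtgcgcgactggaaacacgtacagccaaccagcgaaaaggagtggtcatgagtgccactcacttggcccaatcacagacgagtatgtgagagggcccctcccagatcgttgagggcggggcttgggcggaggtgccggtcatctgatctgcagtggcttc
Tpp1: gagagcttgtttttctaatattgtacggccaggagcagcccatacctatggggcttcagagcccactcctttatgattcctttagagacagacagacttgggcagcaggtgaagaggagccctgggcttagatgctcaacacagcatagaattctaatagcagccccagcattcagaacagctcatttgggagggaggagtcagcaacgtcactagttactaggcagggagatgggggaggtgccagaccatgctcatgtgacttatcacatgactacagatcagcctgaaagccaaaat
Glb1: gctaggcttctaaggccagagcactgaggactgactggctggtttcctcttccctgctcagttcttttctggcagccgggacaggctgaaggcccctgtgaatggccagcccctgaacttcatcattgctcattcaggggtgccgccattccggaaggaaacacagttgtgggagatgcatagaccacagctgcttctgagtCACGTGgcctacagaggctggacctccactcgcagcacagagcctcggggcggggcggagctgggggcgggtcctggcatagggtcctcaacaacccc
That a motif is missing here says only that its letters are not in these windows.

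Library totals ran from 46143178 to 62903489 reads in 8wk STZ, 33266838 to 49051036 in 4wk STZ and 45656309 to 54312248 in Control. The 9 microglial marker genes took 3.51 ± 0.0744% of reads in 8wk STZ, 3.503 ± 0.190% in 4wk STZ and 3.84 ± 0.0913% in Control (SD, n = 4, 3 and 3), and all 9 were tested, so markers of the labelled cell type were present in each group. At 8 weeks 3 of the 9 fell: Csf1r, Tmem119 and Fcrls. The 7 border macrophage markers took 0.0379 ± 0.0279% of reads in 8wk STZ, 0.0258 ± 0.0137% in 4wk STZ and 0.0282 ± 0.0144% in Control, and none passed the test. Rod photoreceptor transcripts were present in every library and differed by group: the 16 rod markers took 0.355 ± 0.061% of reads in 8wk STZ, 0.576 ± 0.107% in 4wk STZ and 0.957 ± 0.0609% in Control. All 16 fell at 8 weeks. Inner retinal neuron markers, 12 genes, took 0.011 ± 0.0021% in 8wk STZ, 0.0206 ± 0.0012% in 4wk STZ and 0.0229 ± 0.0016% in Control, and 3 fell at 8 weeks. The 10 Müller glia markers took 1.30 ± 0.664% in 8wk STZ, 0.496 ± 0.142% in 4wk STZ and 0.445 ± 0.152% in Control, and 2 fell at 8 weeks. Most of that share was Apoe, which microglia also make, at a mean of 11745 CPM in 8wk STZ, 3870 in 4wk STZ and 3391 in Control. The other 9 Müller glia markers all lay below 0 at 8 weeks, with a median log2 fold change of -0.71 over the 10. The part of these shifts in the lysosomal values was not tested. Across genes, Control 3 and 4wk STZ 3 had the lowest mean correlation of log2 CPM with the other libraries (0.908 and 0.912, against 0.916 to 0.932 for the rest), so counts are also given without them.

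The 38 genes together took 2.02 ± 0.083% of reads in 8wk STZ, 2.04 ± 0.108% in 4wk STZ and 2.13 ± 0.114% in Control, a total that differed by about as much as the libraries of 1 group did. Levels between genes are compared as CPM (reads scaled to a fixed library size) per kilobase of exon, averaged over the 10 libraries. The length joins all annotated exons of a gene and can exceed that of any transcript in use. The order of genes therefore depends on the annotation too. Psap, the precursor of the saposins that lift lipids for hydrolases, stood highest at 1661 CPM per kb, ahead of Cd68, a heavily glycosylated lysosomal protein of macrophages, at 1116. Grn, the progranulin that is split into granulins in the lysosome, followed at 728, and Hexa, the alpha chain of beta-hexosaminidase, at 475. Gla stood lowest at 2.76 CPM per kb. In the pump the accessory subunit Atp6ap1 (304) and the stalk subunit Atp6v1g1 (213) stood highest, while Atp6v0a1 (18.6), Atp6v1a (18.1) and Atp6v1h (7.81) stood low. Pump proteins are needed in fixed but unequal copies, and transcript levels per length spanned from 7.81 to 304 CPM per kb.

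**Figure D1:**
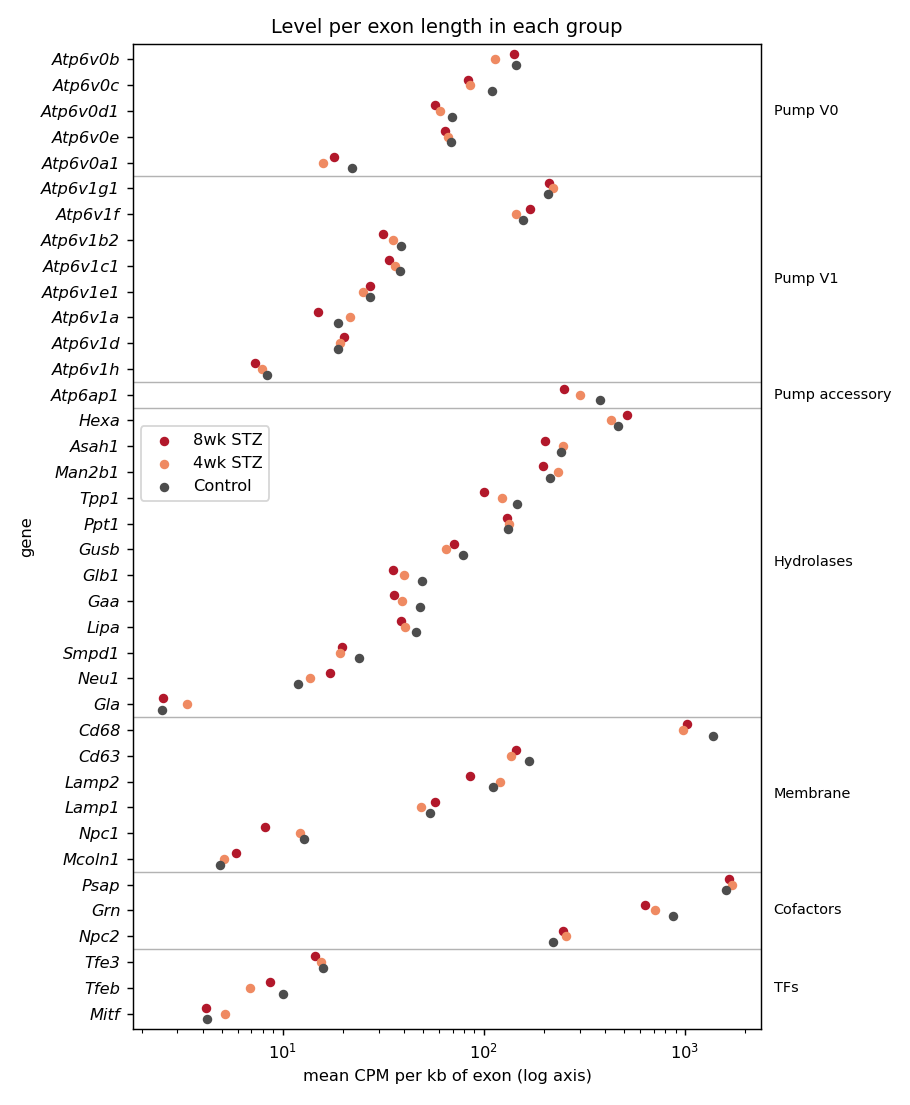
Mean CPM per kb of exon (log axis) of the 38 genes in 8wk STZ, 4wk STZ and Control libraries, grouped by role and ordered by the Control level. Psap, Cd68 and Grn stand highest, Gla lowest, and the 3 group means of a gene lie close together beside the spread between genes.

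At 8 weeks after STZ, 4 of the 38 genes fell and 0 rose (edgeR quasi-likelihood test, Benjamini-Hochberg adjusted p below 0.05 over 18957 genes). Of all genes tested, 1.4% fell, 0.971% rose and 2.37% passed in either direction. The 4 were Atp6ap1 of the pump, the hydrolases Tpp1 and Glb1, and the cholesterol exporter Npc1. Their libraries did not overlap with Control: every 8wk STZ library lay below every Control library. That was so for 15 of the 38 genes, against 7.99% of all genes, while 1, the sialidase Neu1, lay wholly above, against 8.91% of all genes. At an unadjusted p below 0.05, 15 genes stood lower, against 7.24% of all genes, and 1 stood higher, against 8.42%. The log2 fold change was below 0 for 27 of 38 genes, with a median of -0.19, beside -0.0061 over all genes.

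Of the 4, only Atp6ap1 kept its call in each of the 7 fits that left out 1 of the libraries compared. Tpp1 kept it without Control 2 and without 8wk STZ 4, Glb1 without 8wk STZ 4, and Npc1 without Control 2 and without 8wk STZ 2, and each lost it in the other fits. The highest adjusted p came without Control 3 for all 3: 0.097 for Tpp1, 0.075 for Glb1 and 0.092 for Npc1. Their log2 fold changes stayed between -0.60 and -0.43 for Tpp1, -0.52 and -0.45 for Glb1, and -0.71 and -0.56 for Npc1. Fits that left out a 4wk STZ library called all 4. With Control 3 and 4wk STZ 3 both left out, 1 gene was called, Atp6ap1.

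**Figure D2:**
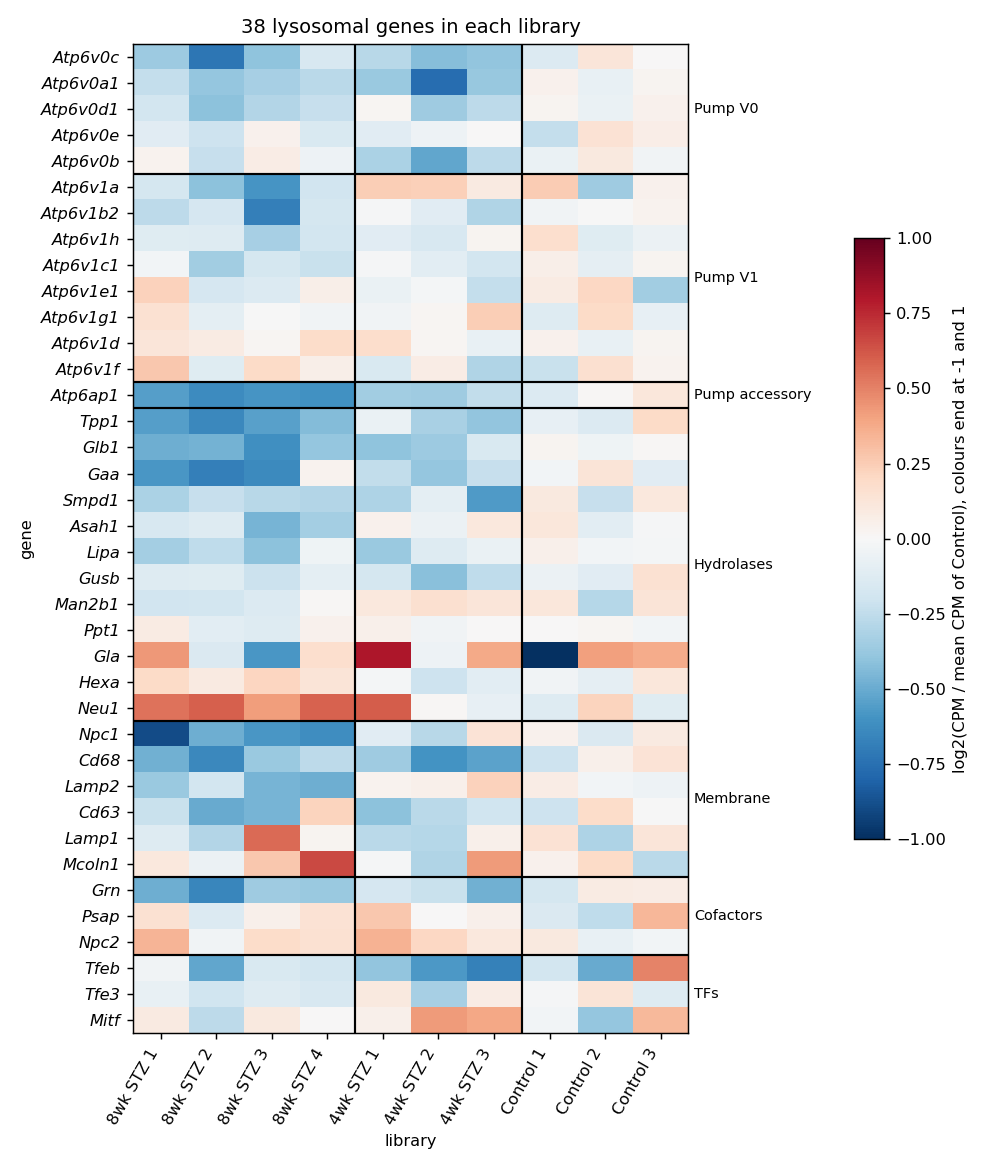
Log2 of the CPM in each library over the mean CPM of Control for the 38 genes (rows, by role) in the 4 8wk STZ, 3 4wk STZ and 3 Control libraries (columns). Blue runs through Atp6ap1, Tpp1, Glb1 and Npc1 in all 4 8wk STZ libraries, Neu1 is red in them, and Gla and Tfeb vary among the Control libraries.

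At 4 weeks after STZ, 0 of the 38 genes passed the test, as did 0% of all genes in either direction. At an unadjusted p below 0.05, 10 genes stood lower, against 4.97% of all genes, and 0 stood higher, against 4.78%. By the same count over all genes, 1849 had an unadjusted p below 0.05. The edgeR likelihood ratio test called 2 of the 38 (Atp6v0a1 and Cd68) among 244 genes, DESeq2 called 4 (those 2, Atp6ap1 and Atp6v0b) among 503, and limma-voom called 0 in all. The groups did not overlap for 9 genes that stood lower in 4wk STZ, against 6.25% of all genes, and for 1 that stood higher, Npc2, against 6.07%. The median log2 fold change was -0.11, beside -0.0039 over all genes, and 25 of 38 lay below 0. Both STZ groups are set against the same 3 Control libraries, so the values at 4 and 8 weeks are given side by side and not as agreement of independent tests.

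Between the STZ groups, 1 of the 38 genes, Lamp2, fell in 8wk STZ relative to 4wk STZ, against 0.522% of all genes. The libraries did not overlap for 7 genes lower in 8wk STZ, against 6.97% of all genes, and for 2 that stood higher, Hexa and Atp6v0b, against 8.39%. The median log2 difference was -0.063, beside -0.00045 over all genes.

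**Figure D3:**
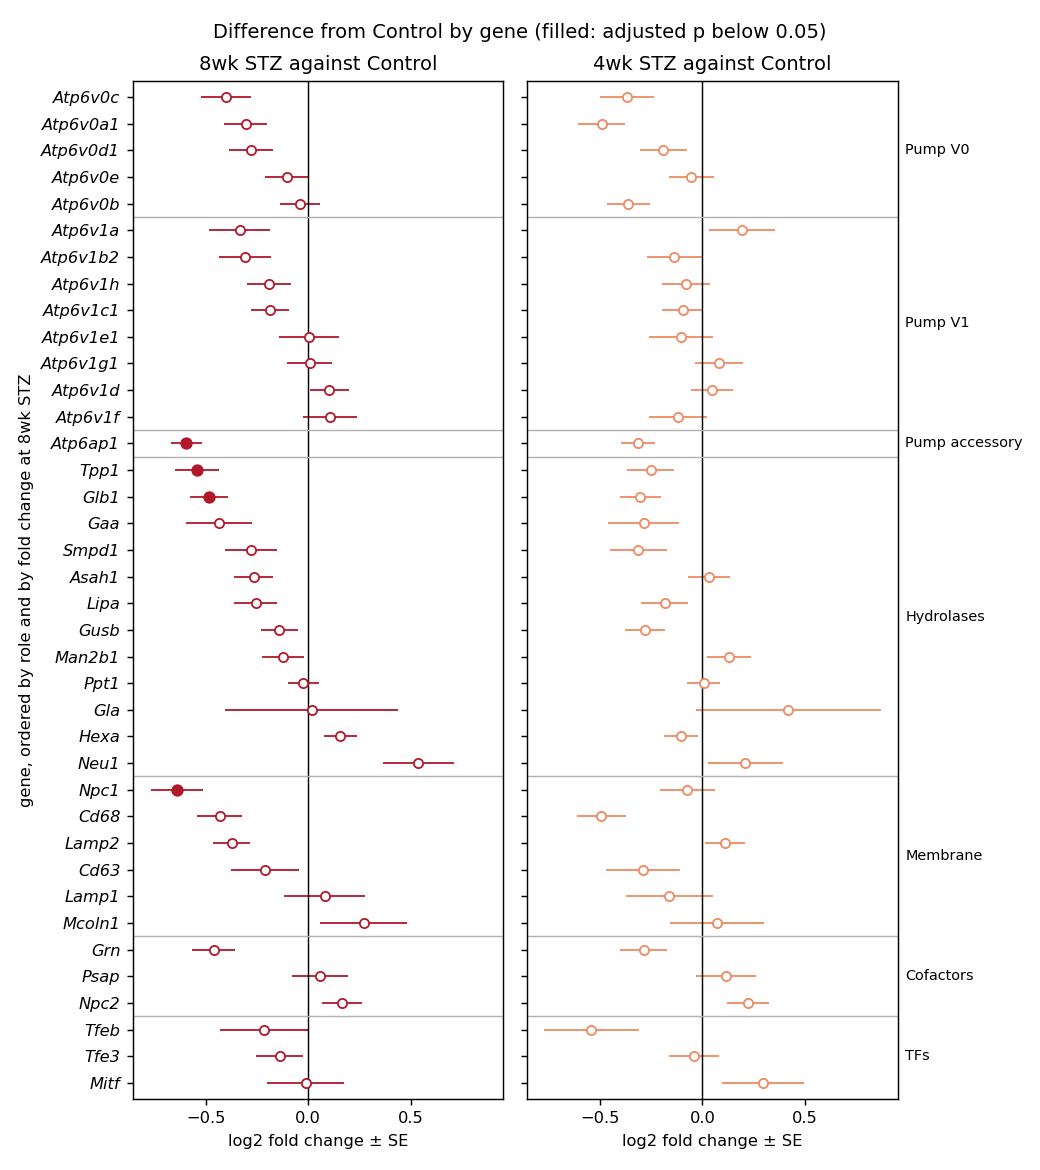
Log2 fold change ± SE of each of the 38 genes, by role, for 8wk STZ against Control (left) and 4wk STZ against Control (right), with filled points where the adjusted p was below 0.05. Atp6ap1, Tpp1, Glb1 and Npc1 are filled at 8 weeks and none at 4 weeks, and all 5 V0 subunits lie below 0 in both panels, a position that Atp6v0b at 8 weeks lost with library totals as the only scaling and in 2 fits without 1 library, and Atp6v0e at 4 weeks in 1.

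In the proton pump, 1 of 14 subunits fell at 8 weeks, 13 did not pass, and 10 lay below 0 (median log2 fold change -0.19). Over all genes tested, 1.4% fell and 50.6% lay below 0. Atp6ap1, the accessory subunit that guides pump assembly and delivery (chrX:74297097-74304721, plus strand, GRCm38), had 777, 737, 757 and 749.8 CPM in the 8wk STZ libraries. It had 896, 892 and 963 CPM in 4wk STZ and 1038, 1149.6 and 1233 CPM in Control. The 3 groups formed 3 separate ranges, with 8wk STZ lowest and Control highest. At 8 weeks it fell by 0.59 on the log2 scale (SE 0.075, adjusted p = 0.0036). At 4 weeks the difference from Control did not pass (log2 difference -0.31, SE 0.081, adjusted p = 0.278), nor did that between 8wk STZ and 4wk STZ (log2 difference -0.28, SE 0.076, adjusted p = 0.117). The 14 pump genes as a set took 0.304 ± 0.0078% of reads in 8wk STZ, 0.303 ± 0.0061% in 4wk STZ and 0.344 ± 0.012% in Control. Within the set, V1 subunits took 0.119 ± 0.0058% in 8wk STZ, 0.117 ± 0.0045% in 4wk STZ and 0.118 ± 0.0041% in Control. V0 subunits took 0.107 ± 0.0066%, 0.0960 ± 0.0055% and 0.116 ± 0.0067% in the same order. The rest of the set was Atp6ap1 alone. The V1 share was alike in the 3 groups, while the V0 share was lowest in 4wk STZ. The share of the set therefore does not show a fall across the whole pump, nor one of Atp6ap1 alone.

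The 5 V0 subunits lay below 0 at both times, with a median log2 fold change of -0.28 at 8 weeks and -0.36 at 4 weeks, though none passed. Scaled to library totals only, Atp6v0b, a ring subunit, lay above 0 at 8 weeks (0.064, against -0.038 with TMM factors). It also lay above 0 without 8wk STZ 2 (0.020) and without Control 2 (0.012), and Atp6v0e at 4 weeks did so without Control 2 (0.023). Atp6v0c, which forms most of the proton-carrying ring, had 288, 225, 281 and 333 CPM in 8wk STZ, 306, 276 and 282 in 4wk STZ and 338, 404 and 373 in Control. All STZ libraries were lower than any Control library, and 8wk STZ and 4wk STZ overlapped. The adjusted p was 0.127 at 8 weeks (log2 fold change -0.40, SE 0.12) and 0.410 at 4 weeks (-0.37, SE 0.13). The pseudogene Atp6v0c-ps2 was given 4.70% as many reads as Atp6v0c, so the split of reads between the pair is uncertain. Atp6v0a1, an isoform of the subunit that forms the proton path and steers the pump to its organelle, had 124, 111, 116 and 121 CPM in 8wk STZ, 113, 86.0 and 112 in 4wk STZ and 150.2, 138 and 148 in Control. Both STZ groups lay below Control and overlapped with each other, and neither difference passed, at 8 weeks (log2 difference -0.31, SE 0.11, adjusted p = 0.182) or at 4 weeks (log2 difference -0.49, SE 0.11, adjusted p = 0.252). Atp6v0b, a minor subunit of the ring, averaged 291 ± 26.1 CPM in 8wk STZ, 232 ± 21.4 in 4wk STZ and 298 ± 18.2 in Control, with 4wk STZ apart from both. Atp6v0d1 and Atp6v0e had log2 fold changes of -0.28 and -0.11 at 8 weeks.

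The 8 V1 subunits divided around 0 at 8 weeks: 4 lay below and 4 above, with a median of -0.091. With RLE or upper-quartile factors 6 lay below, Atp6v1e1 and Atp6v1g1 among them (0.0055 and 0.0074 with TMM factors). The median at 4 weeks was -0.088, and none passed at either time. The levels of Atp6v1a were 101, 85.7, 76.1 and 99.8 CPM in 8wk STZ, 135, 135 and 121 in 4wk STZ and 136, 89.1 and 117 in Control. Levels in 8wk STZ were below those of all 4wk STZ libraries and overlapped with Control, whose own libraries spanned widely. The difference between 8wk STZ and 4wk STZ had a log2 value of -0.53 (SE 0.15, adjusted p = 0.135). Atp6v1g1, a subunit of the stalks that hold the motor still, showed no separation of groups, with 264, 221, 237 and 231 CPM in 8wk STZ, 231, 240.1 and 282 in 4wk STZ and 218, 271 and 224 in Control. The ATP-binding subunit Atp6v1b2 and the regulatory subunits Atp6v1h and Atp6v1c1 had log2 fold changes from -0.31 to -0.19 at 8 weeks. The stalk subunit Atp6v1e1 and the rotor subunits Atp6v1d and Atp6v1f had log2 fold changes of 0.0055, 0.10 and 0.11.

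Among the 12 hydrolases, 2 fell at 8 weeks, 10 did not pass, and 9 lay below 0 (median log2 fold change -0.20, and -0.15 at 4 weeks). The shares over all genes at 8 weeks were 1.4% that fell and 50.6% below 0. Tpp1, a protease that trims tripeptides from proteins and is lost in a childhood neuronal ceroid lipofuscinosis (chr7:105744811-105752235, minus strand), had 514, 484, 519 and 557 CPM in 8wk STZ. It had 722, 604 and 575 CPM in 4wk STZ and 712, 688 and 863 in Control. The 8wk STZ libraries lay below all others, and 4wk STZ overlapped with Control. At 8 weeks Tpp1 fell by 0.54 on the log2 scale (SE 0.11, adjusted p = 0.026), and at 4 weeks its value was -0.25 (SE 0.11, adjusted p = 0.514). Glb1, the beta-galactosidase that cuts GM1 ganglioside (chr9:114401076-114474898, plus strand), had 107, 108, 97.7 and 114 CPM in 8wk STZ, 113, 116 and 134 in 4wk STZ and 152, 145 and 150.5 in Control. Both STZ groups lay below Control, and the Control libraries were close together. Glb1 fell by 0.49 on the log2 scale at 8 weeks (SE 0.093, adjusted p = 0.023), with -0.30 at 4 weeks (SE 0.10, adjusted p = 0.366). Glb1 shares 5.49% of its exon bases with Tmppe on the same strand, to which 19.3% as many reads were assigned, so reads in the shared part may have gone to either.

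**Figure D4:**
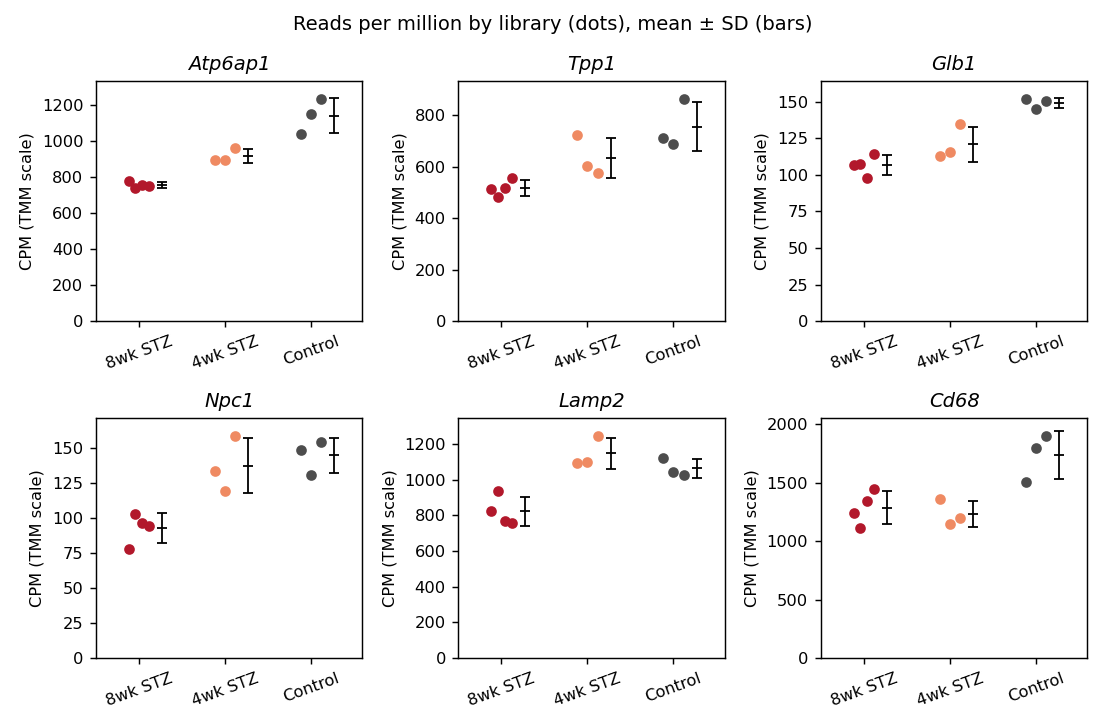
CPM in each library (dots) with the group mean ± SD (bars) in 8wk STZ, 4wk STZ and Control for Atp6ap1, Tpp1, Glb1, Npc1, Lamp2 and Cd68. Atp6ap1, Tpp1, Glb1 and Npc1 are lower in all 8wk STZ libraries than in any Control library, Lamp2 is lower in 8wk STZ than in 4wk STZ, and Cd68 is lower in both STZ groups than in Control without passing the test.

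Hexa was the most abundant hydrolase per length and took another course. It had 1056, 986, 1073 and 1014 CPM in 8wk STZ, 915, 802 and 862 in 4wk STZ and 905, 868 and 1002 in Control. In 8wk STZ it was above all 4wk STZ libraries and overlapped with Control. The difference between 8wk STZ and 4wk STZ did not pass (log2 difference 0.26, SE 0.079, adjusted p = 0.156), nor did that from Control (log2 difference 0.16, SE 0.079, adjusted p = 0.378). Asah1, the acid ceramidase, had 738, 750.5, 596 and 651 CPM in 8wk STZ, 848, 789 and 884 in 4wk STZ and 888, 764 and 816 in Control. Its 8wk STZ libraries lay below every other library, with an adjusted p of 0.205 against Control (log2 fold change -0.27, SE 0.097). Gusb, the beta-glucuronidase, had 327, 329, 308 and 334 CPM in 8wk STZ, 317, 268 and 299.5 in 4wk STZ and 344, 331 and 398 in Control. The 4wk STZ libraries lay below Control and 8wk STZ overlapped with it, and the value at 4 weeks did not pass (log2 difference -0.28, SE 0.097, adjusted p = 0.393).

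Neu1, singled out here after its values were seen, was the hydrolase with the highest log2 fold change at 8 weeks. It removes sialic acid from glycoproteins and glycolipids, and had 64.9, 67.2, 59.3 and 66.8 CPM in 8wk STZ, 67.5, 44.7 and 41.9 in 4wk STZ and 40.6, 52.0 and 40.8 in Control. All 8wk STZ libraries lay above Control, while 4wk STZ 1 stood as high as 8wk STZ. The difference at 8 weeks did not pass (log2 difference 0.54, SE 0.17, adjusted p = 0.141). Of the remaining hydrolases, the sphingomyelinase Smpd1, the acid lipase Lipa and the glycogen-cutting Gaa had log2 fold changes of -0.28, -0.25 and -0.43 at 8 weeks. The mannosidase Man2b1, the thioesterase Ppt1 and Gla had -0.12, -0.024 and 0.017, of which Gla had the widest error (SE 0.42). Gaa stood at 154, 144, 148 and 236 CPM in the 8wk STZ libraries, against 226, 251 and 213 in Control, and 8wk STZ 4 alone reached the Control range.

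Of the 6 membrane proteins, 1 fell at 8 weeks, against 1.4% of all genes, and 5 did not pass. Below 0 lay 4, against 50.6% of all genes. The median log2 fold change of the 6 was -0.29 (-0.12 at 4 weeks). Together they took 0.305 ± 0.0219% of reads in 8wk STZ, 0.312 ± 0.0131% in 4wk STZ and 0.362 ± 0.0147% in Control. Npc1, which moves cholesterol out through the lysosomal membrane and is lost in Niemann-Pick disease type C (chr18:12189692-12236400, minus strand), had 78.1, 103, 96.7 and 94.1 CPM in 8wk STZ. It had 134, 119.7 and 159 CPM in 4wk STZ and 149, 131 and 154 in Control. All 4 8wk STZ libraries were the lowest, while 4wk STZ spanned the Control range. Npc1 fell by 0.64 on the log2 scale at 8 weeks (SE 0.13, adjusted p = 0.026), and at 4 weeks its value was -0.074 (SE 0.13, adjusted p = 0.929). Against 4wk STZ, the 8wk STZ value did not pass (log2 difference -0.57, SE 0.13, adjusted p = 0.069). The gene Rmc1 shares 4.52% of the exon bases of Npc1 on the other strand and had 22.3% as many reads. Rmc1 had 1875, 1841, 1503 and 1997 reads in 8wk STZ libraries 1 to 4, 1083, 1213 and 1111 in 4wk STZ, and 863, 715 and 838 in Control. The library kit does not mark strand, so reads of the shared part cannot be told apart. The same limit holds for Ppt1, which shares 3.51% of its exon bases with Cap1 (99.1% as many reads). It also holds for Lamp1, which shares 9.31% with Grtp1 (6.75% as many reads). Atp6v0b, Atp6v1e1, Atp6v1h, Hexa and Grn overlap genes on the other strand that had at most 5.48% as many reads.

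Lamp2, a heavily glycosylated protein of the lysosomal boundary that also serves in autophagy (chrX:38401357-38456454, minus strand), had 822, 936, 769 and 759 CPM in 8wk STZ, 1092, 1100.0 and 1247 in 4wk STZ and 1122, 1043 and 1024 in Control. The 8wk STZ libraries lay below all others, and 4wk STZ overlapped with Control. Relative to 4wk STZ, Lamp2 fell by 0.48 on the log2 scale in 8wk STZ (SE 0.091, adjusted p = 0.040), a call kept in 1 of the 7 fits that left out a library of these groups. It was kept without 8wk STZ 2, lost without each of the others and also without any 1 Control library, with the highest adjusted p, 0.15, without 4wk STZ 3. Relative to Control the value did not pass (log2 difference -0.37, SE 0.091, adjusted p = 0.062). Cd68 had 1240.4, 1111, 1343 and 1443 CPM in 8wk STZ, 1356, 1142 and 1193 in 4wk STZ and 1504, 1793 and 1902 in Control. Both STZ groups lay below Control and overlapped with each other. Neither difference passed, at 8 weeks (log2 difference -0.43, SE 0.11, adjusted p = 0.075) or at 4 weeks (log2 difference -0.49, SE 0.12, adjusted p = 0.253).

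Cd63, a tetraspanin of late endosomes and lysosomes, had 531, 437, 448 and 723 CPM in 8wk STZ, 465, 514 and 540.3 in 4wk STZ and 538, 701 and 619 in Control. The groups overlapped, and 8wk STZ 4 held the highest value of all libraries. A Cd63 pseudogene was given 3.96% as many reads. Lamp1, the partner of Lamp2, and Mcoln1 lay above 0 at 8 weeks with log2 fold changes of 0.082 (SE 0.20) and 0.27 (SE 0.21), and their groups overlapped. Lamp1 turned below 0 without 8wk STZ 3 (-0.12), its highest 8wk STZ library, and without Control 2 (-0.053), and Mcoln1 ran from 0.11 to 0.37 in the fits without 1 library.

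None of the 3 soluble cofactors passed in any comparison. The shares of all genes that passed were 2.37% at 8 weeks, 0% at 4 weeks and 0.918% between the STZ groups. Grn had 2155, 1924, 2368 and 2337 CPM in 8wk STZ, 2684, 2585 and 2164 in 4wk STZ and 2674, 3203 and 3191 in Control. Every 8wk STZ library lay below every Control library, and 4wk STZ reached into both ranges. At 8 weeks the value lay just past the threshold (log2 difference -0.46, SE 0.11, adjusted p = 0.051). Psap had 4866, 3990.3, 4545 and 4839 CPM in 8wk STZ, 5285, 4398 and 4531 in 4wk STZ and 3955, 3675 and 5499 in Control. The Control libraries alone spanned the range of the other groups, and the log2 fold change at 8 weeks was 0.059 (SE 0.14), below 0 without Control 1 (-0.011) or Control 2 (-0.053). Npc2, the soluble protein that hands cholesterol to Npc1, had 1516, 1173, 1359 and 1334 CPM in 8wk STZ, 1523, 1384 and 1290.0 in 4wk STZ and 1280.1, 1138 and 1177 in Control. The 4wk STZ libraries lay above Control, 8wk STZ overlapped with it, and neither difference passed, at 8 weeks (log2 difference 0.17, SE 0.097, adjusted p = 0.471) or at 4 weeks (log2 difference 0.22, SE 0.10, adjusted p = 0.521).

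The transcription factors were among the lowest of the 38 genes per length. Tfe3 had 15.2 CPM per kb, Tfeb 8.51 and Mitf 4.48. None passed in any comparison, beside 2.37% of all genes at 8 weeks, 0% at 4 weeks and 0.918% between the STZ groups. Tfeb had 55.2, 39.5, 50.9 and 49.9 CPM in 8wk STZ, 43.2, 38.1 and 35.5 in 4wk STZ and 50.0, 40.0 and 80.1 in Control. Control 3 stood well above the other Control libraries, and the groups overlapped at 8 weeks (log2 difference -0.21, SE 0.21, adjusted p = 0.744) and at 4 weeks (log2 difference -0.54, SE 0.23, adjusted p = 0.486). Without Control 3 the log2 value of Tfeb was 0.12 at 8 weeks and -0.21 at 4 weeks. Tfe3 had 141, 129, 135 and 133 CPM in 8wk STZ, 158, 118 and 155 in 4wk STZ and 147, 162 and 135 in Control. Mitf had 27.7, 21.7, 27.9 and 26.1 CPM in 8wk STZ, 27.0, 34.9 and 34 in 4wk STZ and 25.6, 19.9 and 32.7 in Control. For both genes the groups overlapped, with log2 fold changes at 8 weeks of -0.14 (SE 0.11) and -0.012 (SE 0.19). Mitf lay above 0 without Control 3 (0.18) and without 8wk STZ 2 (0.064).

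A wider list of 96 other lysosomal genes, of which 91 were tested, placed the 38 in context. At 8 weeks 2 of the 91 rose, Tcirg1 and Tmem199, and 6 fell: Idua, Laptm4b, Laptm5, Slc29a3, Atp6ap2 and Atp6v0e2. Of all genes tested, 0.971% rose and 1.4% fell. Of the 91, 59 lay below 0, with a median of -0.14, beside 50.6% below 0 and a median of -0.0061 over all genes. At 4 weeks 0 passed, as did 0% of all genes. In the hydrolases outside the 38, 1 of 25 fell: Idua, the iduronidase, which had 67.4, 61.5, 72.4 and 67.2 CPM in 8wk STZ, 67.9, 51.6 and 62.5 in 4wk STZ and 90.8, 104 and 91.5 in Control (log2 difference -0.51, SE 0.12, adjusted p = 0.049). All STZ libraries lay below Control. Its call was lost in each fit without 1 library, with adjusted p from 0.082 to 0.14.

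Among 24 other membrane proteins 3 fell, against 1.4% of all genes. Laptm5, a lysosomal protein of blood and immune cells, had 6704, 6237, 6835 and 7092 CPM in 8wk STZ, 8445, 8118 and 7786 in 4wk STZ and 8939, 8752 and 9375 in Control. The 3 groups formed separate ranges, ordered as for Atp6ap1 (log2 difference -0.43, SE 0.067, adjusted p = 0.010). Slc29a3, which carries nucleosides out of the lysosome, had 335, 381, 409 and 389 CPM in 8wk STZ, 469, 473 and 448 in 4wk STZ and 678, 541 and 659 in Control, again in 3 separate ranges (log2 difference -0.73, SE 0.097, adjusted p = 0.0052). Both calls held in each of the 7 fits without 1 library. Laptm4b had 66.2 ± 9.0 CPM in 8wk STZ, 103 ± 16.9 in 4wk STZ and 106 ± 4.83 in Control (log2 difference -0.68, SE 0.14, adjusted p = 0.031), and held in 1 of the 7, that without 8wk STZ 2.

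Isoforms of the pump subunits differed in direction. Tcirg1 encodes a3, the isoform of the a subunit best known from the bone-resorbing osteoclast, and stood at 224, 214, 236 and 237 CPM in 8wk STZ, 146, 132 and 130.4 in 4wk STZ and 164, 158 and 179 in Control. All 8wk STZ libraries were above, and all 4wk STZ libraries below, every other library. It rose at 8 weeks relative to Control (log2 difference 0.45, SE 0.085, adjusted p = 0.023) and relative to 4wk STZ (log2 difference 0.74, SE 0.086, adjusted p = 0.0072). The first call held in 2 of 7 fits, those without Control 3 and without 8wk STZ 2, and was lost without each other library of the pair, with the highest adjusted p, 0.079, without Control 2, and the call against 4wk STZ held in all 7 but not with Control 3 and 4wk STZ 3 both left out (adjusted p = 0.068). Of the a-subunit transcripts per length of exon, Tcirg1 took 56.8 ± 1.80% in 8wk STZ, 46.1 ± 2.97% in 4wk STZ and 44.6 ± 1.70% in Control. Atp6v0a1 took 20.6 ± 0.999% in 8wk STZ, 24.5 ± 1.87% in 4wk STZ and 27.3 ± 1.12% in Control. Atp6v0a2 took 22.5 ± 2.26% in 8wk STZ, 29.4 ± 1.25% in 4wk STZ and 28.1 ± 2.13% in Control. The 8wk STZ libraries did not overlap with either other group in the Tcirg1 share.

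**Figure D5:**
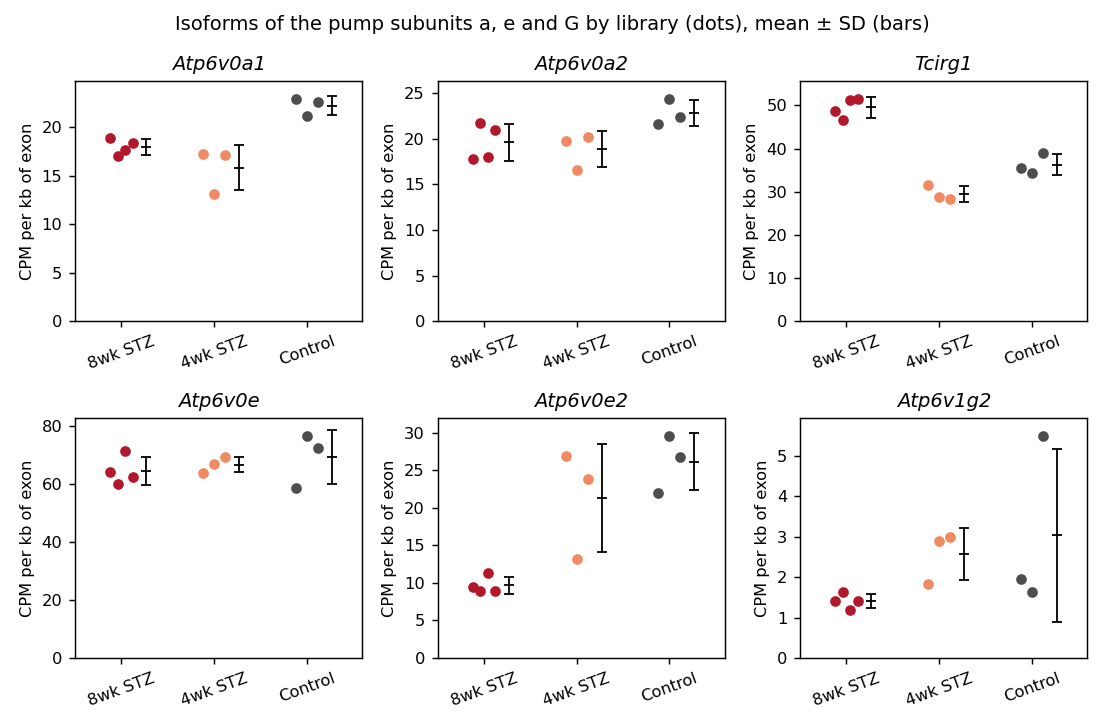
CPM per kb of exon in each library (dots) with the group mean ± SD (bars) for 3 isoforms of the a subunit (Atp6v0a1, Atp6v0a2, Tcirg1), 2 of the e subunit (Atp6v0e, Atp6v0e2) and Atp6v1g2. Tcirg1 stands highest in the 4 8wk STZ libraries and Atp6v0e2 lowest in them, while Atp6v0e overlaps between groups.

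Atp6v0e2, the second e-subunit isoform, moved the other way, with 22.5, 21.3, 27.0 and 21.2 CPM in 8wk STZ, 63.9, 31.5 and 56.7 in 4wk STZ and 52.4, 70.5 and 63.7 in Control. The 8wk STZ libraries lay below all others. It fell by 1.43 on the log2 scale relative to Control (SE 0.22, adjusted p = 0.0098), in all 7 fits without 1 library. Relative to 4wk STZ it fell by 1.14 (SE 0.22, adjusted p = 0.041), a call kept in 1 of 7 fits, that without 4wk STZ 2, and lost without each other library of either group and without any 1 Control library (adjusted p from 0.057 to 0.149). Atp6v1g2, the G isoform of neurons, had 3.54, 4.11, 2.98 and 3.53 CPM in 8wk STZ, 4.61, 7.29 and 7.50 in 4wk STZ and 4.91, 4.12 and 13.8 in Control, and did not pass (log2 difference -1.11, SE 0.41, adjusted p = 0.214). The rod marker share, 0.355% of reads in 8wk STZ, 0.576% in 4wk STZ and 0.957% in Control, moved in the same direction as both genes, and its part in their values was not tested. Atp6ap2, the other accessory subunit, fell with Atp6ap1: it had 190.0, 205, 188 and 189 CPM in 8wk STZ, 197, 191 and 226 in 4wk STZ and 250.2, 252 and 264 in Control (log2 difference -0.40, SE 0.083, adjusted p = 0.030), a call lost in each of the 7 fits without 1 library. Tmem199, an assembly factor of the pump, rose to 38.1 ± 5.94 CPM in 8wk STZ, with 22.4 ± 4.32 in 4wk STZ and 22.5 ± 0.816 in Control (log2 difference 0.76, SE 0.17, adjusted p = 0.047), and lost the call in the same way. Of the other tissue-restricted isoforms, Atp6v0d2, known from osteoclasts, and Atp6v1b1, known from kidney, were near absent: Atp6v0d2 had 20, 0, 7 and 0 reads in 8wk STZ libraries 1 to 4 and 0 in each 4wk STZ and Control library, and Atp6v1b1 had at most 2 reads in any library.

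In the authors' deposited table, 7 of the 38 genes had an FDR below 0.05 at 8 weeks, all lower: Atp6ap1, Cd68, Glb1, Grn, Lamp2, Npc1 and Tpp1, among 1055 of 14475 genes listed. In the authors' deposited table for 4 weeks, 1 did, Cd68, among 116 genes. The direction of all 38 genes at 8 weeks was the same in the authors' deposited table as in the values given here. Both rest on the same counts, so the match is not an independent check.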

How the data were processed

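Reads per gene were counted by the authors and deposited as raw counts, per the file headers, for 10 libraries. The submitters' processing notes name STAR, Subread, featureCounts, Salmon, edgeR and limma, and the build GRCm38. For annotation release, strand setting and multi-mapping reads, the choice made is not given in the sources used here. The authors' second deposited table gives log2 fold changes and p-values with FDR, per the file headers, and repeats the counts in 10 columns that were not used.

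Of 55774 entries, 287 repeated an identifier with identical counts and were dropped. Counts were scaled by TMM, filtered with filterByExpr and fitted in edgeR 4.0.16 (R 4.3.3) with 1 mean per group over 10 libraries (7 residual degrees of freedom, biological coefficient of variation 0.564). The robust quasi-likelihood F-test was adjusted by Benjamini-Hochberg over 18957 genes, with calls at an adjusted p below 0.05. SE belongs to the log2 fold change. CPM is on the TMM scale, and exon lengths and coordinates come from GENCODE vM21 (GRCm38). Exon length is the merged length of all annotated exons of a gene. DESeq2 1.42.0 and limma 3.58.1 served as alternatives. The fit was tested on simulated data. No pair of libraries was near-identical (lowest chi-square per degree of freedom 48.2). Precision covers the spread between these animals, whose pairing by replicate number is not stated in the labels.

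The genes and lists were chosen with earlier results of these data known. Given in every library were genes called in any comparison, the 2 with the smallest unadjusted p per role and comparison, the 2 most abundant per length in each role, and the 3 transcription factors. Named besides were called genes of the wider list and 5 pump isoforms (Tcirg1, Atp6v0d2, Atp6v0e2, Atp6v1g2, Atp6v1b1). Neu1 and Gaa were added after their values were seen, as was Atp6v0a2 by its share. The other members are given by log2 fold change, group mean or range. One gene of the lists is not reported here.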

Additional observations from a re-analysis of the deposited data

Results flagged for a closer look

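The following 5 values were flagged, each given without an explanation. In 2 genes, 1 of the 4 8wk STZ libraries lay far from the other 3. The gap from that library to its nearest neighbour, divided by the group's range, passed Dixon's 95% critical value for 4 samples. Chance gives such a flag in about 1 of 20 groups. The rule was run on the 38 genes and on the genes of the wider list called at 8 weeks, so 2 flags are near that rate. For Gaa the ratio was 0.889, with 8wk STZ 4 high at 236 CPM. That library also had the highest shares of reads of border macrophage markers (0.0694%) and of Müller glia markers (2.10%). Next in both was 8wk STZ 1 (0.0512% and 1.57%), with Gaa at 154 CPM. The part of these shares in the Gaa value was not tested. For Atp6ap2 it was 0.887, with 8wk STZ 2 high at 205 CPM.

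In 3 further genes the 2 STZ groups differed, by the test of 8wk STZ against 4wk STZ, in which animal age and weeks of diabetes cannot be told apart. The difference in log2 fold change was -0.48 for Lamp2, 0.74 for Tcirg1 and -1.14 for Atp6v0e2. The Tcirg1 difference held in each of the 7 fits without 1 library, and those of Lamp2 and Atp6v0e2 in 1 of 7 each.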

How the results depend on the processing

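The number of calls moved with the setting, while 24 to 30 of the 38 genes lay below 0 at 8 weeks in every setting run. Of the 38 genes, the count called at 8 weeks (4 as reported) was 5 with RLE size factors, 5 with no filter and 4 with the 2 groups alone. It was 1 with library totals as the only scaling, 7 with upper-quartile factors, 9 with DESeq2 (1 higher, Neu1), 7 with limma-voom and 7 with the likelihood ratio test. It was 1 with Control 3 and 4wk STZ 3 both left out, and ran from 1 to 5 when 1 library was left out. At 4 weeks (0 as reported) DESeq2 called 4 and the likelihood ratio test 2. For 8wk STZ against 4wk STZ (1 as reported) the count was 0 with library totals, 2 with upper-quartile factors, 6 with DESeq2, 3 with the likelihood ratio test, 0 with the 2 groups alone, 0 without Control 3 and 4wk STZ 3, and 0 to 1 with 1 library left out.

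Over all genes at 8 weeks (449), DESeq2 called 1676, the likelihood ratio test 1166, the fit without Control 3 and 4wk STZ 3 called 275, and fits without 1 library 206 to 462. At 4 weeks (0), no filter gave 12, DESeq2 503, the likelihood ratio test 244, and fits without 1 library 0 to 1. For 8wk STZ against 4wk STZ (174), no filter gave 277, DESeq2 1214, the likelihood ratio test 759, the 2 groups alone 100, the fit without Control 3 and 4wk STZ 3 gave 6, and fits without 1 library 13 to 118.

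Library totals moved the median of all genes at 8 weeks to 0.098, the pump median to -0.086, and the share of calls that were higher to 66.1%, against 41.0% with TMM and 30.9% with upper-quartile factors. For 8wk STZ against 4wk STZ these shares were 70.8%, 43.1% and 31.2%, and 63% with the 2 groups alone. For 8wk STZ against 4wk STZ the genes below 0 numbered 24 with TMM, 17 with library totals and 27 with upper-quartile factors: Atp6v0c, Atp6v0e, Atp6v1g1, Lipa, Ppt1, Psap and Npc2 turned above 0 with library totals, none of them called. Npc2 turned to 0.027 with library totals, and ran from -0.11 to 0.012 with 1 library left out, 0.0058 among them. With 1 library left out, the sign turned in at least 1 fit for 9 of the 38 genes at 8 weeks, 11 at 4 weeks and 8 between the STZ groups, none of them called in that comparison. The causes were not tested.

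Libraries of the same replicate number deviated together with correlations from -0.030 to 0.035, and libraries of different numbers from -0.039 to 0.039. These values show no pairing by number, and with so few libraries they cannot settle whether litters or batches were shared. With a replicate block the 38 genes had 0 calls at 8 weeks, 0 at 4 weeks and 0 between the STZ groups, and all genes had 44, 0 and 0. The block leaves fewer residual degrees of freedom.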

Other observations

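Genes that deliver enzymes to the lysosome were 9 in all, and genes that sense nutrients at its surface 19. They had 0 calls in each comparison. Over all genes, 2.37% were called at 8 weeks, 0% at 4 weeks and 0.918% between the STZ groups. In lists this small, 0 calls is near those shares. The median log2 fold changes of these lists at 8 weeks were 0.11 and 0.049. Beside them stood -0.24 for the 25 hydrolases and -0.19 for the 24 membrane proteins of the same wider list. At 4 weeks the medians were -0.048 and -0.055, beside -0.14 and -0.20. These medians describe the lists and were not tested against each other.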
